A study of Mus musculus with 28 samples.

Results

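The comparison described here is the change in gene expression between tdTomato-labelled cells and the total cells of the interfollicular epidermis (IFE), the epidermis between hair follicles, measured in mouse tail skin and set against the same change in back skin. Its members are all 28 libraries of the series. They form 14 pairs of 1 labelled and 1 total library with the same line, site and replicate number, 6 pairs from tail and 8 from back. In each line a tamoxifen-inducible Cre (CreER), bears the name of Slc1a3, Aspm, Dlx1 or K14 (the keratin encoded by Krt14), and the mice also carry a RosatdTomato reporter, and the labels give every genotype as WT with these alleles.

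The labelled groups are tail Slc1a3+, Aspm+ and Dlx1+ IFE (2 libraries each) and back Slc1a3+ (3), Aspm+ (3) and K14+ IFE (2), and each has a matching total IFE group of the same size from the same line and site. All mice, those of the total groups included, were given tamoxifen at 100 ug/ml on 5 days in a row between postnatal days 30 and 34. Skin was taken 2 weeks later, at day 49, when the hair follicles are at rest (telogen). The label marks the cells in which the Cre was active and their descendants, and the reporter allele is present in labelled and total groups alike. The sorting gates, whether a total contains labelled cells, and whether replicates are separate animals are not given in the sources used here, and the p-values cover only the variation from library to library, which may be technical. The Dlx1 line was measured in tail alone and the K14 line in back alone, so for these lines the site and the line cannot be told apart. The Slc1a3 and Aspm lines were measured at both sites.

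Library totals ran from 7738262 to 37670589 counts (median 2.02e+07). The total library of back Slc1a3 replicate 4 stood apart, with the lowest total, 14436 genes with a count against 18375 to 22500 in the other 27 libraries, and 0.208% mitochondrial counts against 0.974 to 2.32%. Counts of calls without this pair are given beside the main results and the larger changes in the gene lists. Krt14, the keratin of basal epidermal cells, was at 31060 to 57060 CPM in tail labelled, 24460 to 45170 CPM in tail total, 10600 to 20420 CPM in back labelled and 9983 to 25070 CPM in back total libraries.

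Epidermis between follicles is renewed by basal keratinocytes, which divide on the basement membrane, leave it and cornify. Hair follicles next to it hold further epithelial compartments. Among them are the bulge with its resting stem cells, the hair germ below it, and the isthmus and upper follicle, where the receptor-tyrosine-kinase restraint Lrig1 marks a stem cell compartment in mice. Tail and back epidermis differ in their build: tail epidermis has a scale pattern with few, large follicles, and back epidermis is thin and densely haired. A labelled-over-total change is read here as log2 of labelled over total within a pair. A negative value means that the transcript was less abundant in the labelled cells than in the total of the same line, site and number. In bulk RNA, fewer cells of a type and less RNA per cell cannot be told apart. The marker genes of the comparison are Lrig1 (ENSMUSG00000030029, chr6:94604529-94700158, minus strand), Fst (ENSMUSG00000021765, chr13:114452290-114458951, minus strand) and Ccn2 (ENSMUSG00000019997, chr10:24595442-24598683, plus strand), with whole-gene coordinates on GRCm38.

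Lrig1, a transmembrane protein that restrains epidermal growth factor receptors, was lower in labelled cells at both sites, and more so in tail. In tail, the Slc1a3 pairs had 9.66 and 11.5 CPM in labelled cells against 79.2 and 87.4 CPM in their totals. The Aspm pairs had 79.1 and 46.3 CPM labelled against 124 and 83.6 CPM total, and the Dlx1 pairs had 75.5 and 53.7 CPM labelled against 198 and 116 CPM total. In every tail pair the labelled library was the lower one, and the tail Slc1a3+ cells were lowest of all. In back, Slc1a3 pairs had 254, 180 and 155 CPM labelled against 335, 269 and 221 CPM total. Aspm pairs had 347, 152 and 157 CPM labelled against 355, 209 and 177 CPM total, and K14 pairs had 192 and 149 CPM labelled against 232 and 196 CPM total. Each back pair also had the lower value in its labelled library, by a small margin in Aspm replicate 1, and the labelled and total groups overlapped.

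The mean Lrig1 change was -1.66 ± 0.07 in tail and -0.35 ± 0.06 in back (log2 ± SE of the fit, 6 and 8 pairs). The difference between the sites was -1.31 ± 0.09 (edgeR quasi-likelihood test, adjusted p = 1.4e-09, 0.0089 and 2.6e-06 for tail, back and difference). Here and below the SE holds the effect of each line fixed and leaves out the spread between lines. The Lrig1 pair differences had an SD of 1.05 in tail and 0.18 in back. Over the Slc1a3 and Aspm lines alone, which were measured at both sites, the difference was -1.51 (adjusted p = 2.6e-06), and it did not pass without tail Slc1a3 (-0.52, adjusted p = 1), without back Slc1a3 (-0.54, adjusted p = 0.216) or without the pair terms (-1.52, adjusted p = 0.162). An exact permutation of the site label over the 14 pair differences gave p = 0.000666 (two-sided, adjusted over 9 such tests 0.00599). Here and for Fst and Ccn2 below, this permutation treats the 14 pairs as exchangeable. They are replicates within lines, and Dlx1 and K14 were each measured at a single site. Its p therefore does not cover the spread between lines. Without back K14 replicate 1 or 4 the back change lost its call (-0.37 and -0.33, highest adjusted p = 0.113), whereas the tail change and the difference between sites kept theirs without any one pair. Without the pair terms, a replicate block, the difference was -1.34 with an adjusted p of 0.0726, the back change -0.33 with an adjusted p of 1, and 218 genes in place of 444 passed in tail. With a single labelled effect for all lines of a site, the difference was -1.23 (adjusted p = 0.249) and the back change -0.35 (adjusted p = 0.695).

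**Figure D1:**
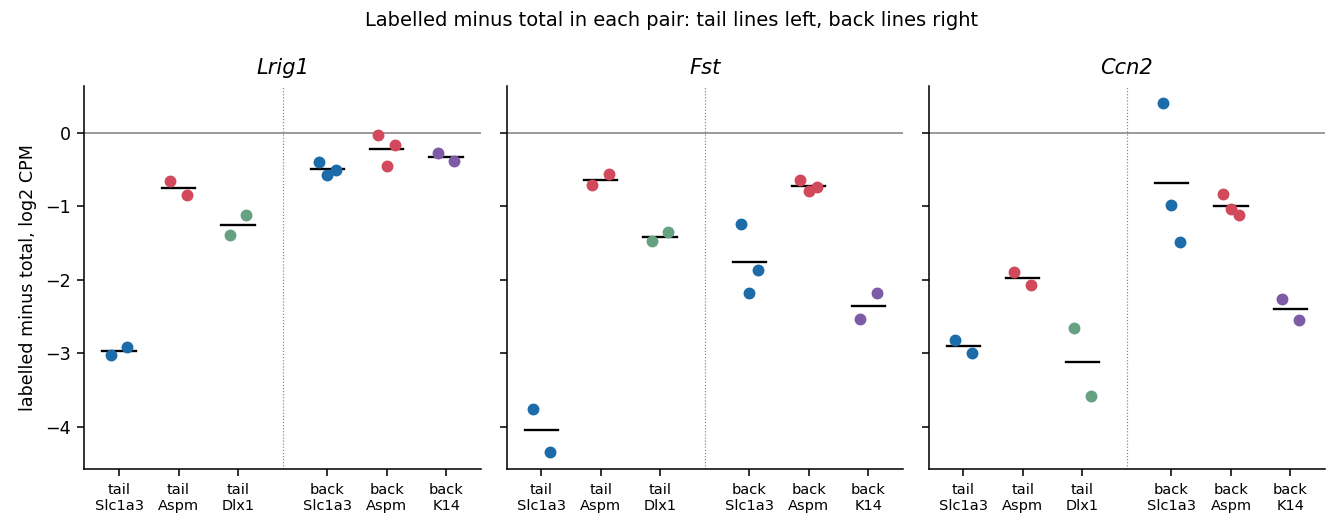
Labelled minus total (log2 CPM) of Lrig1, Fst and Ccn2 in each of the 14 pairs, tail lines left of back lines; each point is a pair, each bar the mean of its line and the grey line no change. The tail Slc1a3 pairs are the lowest for Lrig1 and Fst, at a line effect of -2.98 and -4.15, and a single back Slc1a3 pair of Ccn2 lies above 0.

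Fst encodes follistatin, a secreted protein that binds activins. It was lower in labelled cells in all 14 pairs, and here the sites did not part over all lines. In tail, the Slc1a3 pairs had 1.05 and 0.653 CPM labelled against 15.3 and 14.99 CPM total, the Aspm pairs 8.50 and 8.21 CPM labelled against 14.01 and 12.2 CPM total, and the Dlx1 pairs 12.4 and 12.4 CPM labelled against 34.7 and 31.8 CPM total. The loss was deepest in the tail Slc1a3+ cells. In back, the Slc1a3 pairs had 19.9, 6.48 and 5.19 CPM labelled against 47.2, 29.8 and 19.1 CPM total. The Aspm pairs had 41.8, 22.0 and 40.6 CPM labelled against 65.2, 38.2 and 67.8 CPM total, and the K14 pairs 2.26 and 3.49 CPM labelled against 13.5 and 16.1 CPM total. Levels differed between lines within back, with the Aspm line high and the K14 line low in both populations.

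The mean Fst change was -2.07 ± 0.14 in tail and -1.63 ± 0.11 in back (log2 ± SE, edgeR adjusted p = 2.5e-07 and 1.9e-06), and both calls held without any one pair. With a single labelled effect per site neither passed (adjusted p = 0.0515 in tail and 0.15 in back). The Fst pair differences had an SD of 1.61 in tail and 0.76 in back. The difference between the sites was -0.45 ± 0.18 (adjusted p = 0.625, exact permutation p = 0.434). In the Slc1a3 line alone the sites differed by -2.40 ± 0.34 (adjusted p = 0.00224), whereas the Aspm line gave 0.08 ± 0.27 (adjusted p = 1). Over those lines together the difference was -1.16 ± 0.22 (adjusted p = 0.0216), a call that leaving out any one of 6 pairs ended, as did dropping the pair terms (-1.23, adjusted p = 0.934).

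Ccn2, also called connective tissue growth factor, is a matrix-associated protein and a widely used target gene of the YAP and TEAD transcription factors. In tail, the Slc1a3 pairs had 4.83 and 4.21 CPM labelled against 34.8 and 34.1 CPM total, the Aspm pairs 14.99 and 9.82 CPM labelled against 55.9 and 41.7 CPM total, and the Dlx1 pairs 21.3 and 4.47 CPM labelled against 134 and 54.3 CPM total. All tail labelled libraries lay below all tail totals. In back, the Slc1a3 pairs had 36.1, 7.60 and 4.05 CPM labelled against 27.4, 15.2 and 11.5 CPM total, so that replicate 1 was higher in labelled cells. The Aspm pairs had 36.9, 8.91 and 13.5 CPM labelled against 65.6, 18.5 and 29.4 CPM total, and the K14 pairs 1.29 and 1.41 CPM labelled against 6.49 and 8.70 CPM total. Labelled cells were lower in the other 7 back pairs, and the groups overlapped because replicates differed widely in level.

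The mean Ccn2 change was -2.68 ± 0.19 in tail and -1.34 ± 0.17 in back (log2 ± SE, edgeR adjusted p = 2.8e-07 and 0.00071), and neither call was lost without any one pair. The difference between the sites was -1.33 ± 0.25 (adjusted p = 0.0175, exact permutation p = 0.00666, adjusted over 9 tests 0.0176), and without the back Slc1a3 replicate 4 pair it was -1.45. Leaving out back K14 replicate 1, tail Slc1a3 replicate 2 or tail Aspm replicate 2 raised its adjusted p to 0.134, 0.0653 and 0.0592. Without the pair terms neither the back change (-1.21, adjusted p = 0.954) nor the difference (-1.39, adjusted p = 1) passed, and with a single labelled effect per site neither did (adjusted p = 0.0859 and 0.0996). The difference was also lost without back Aspm, tail Slc1a3 or tail Dlx1 (adjusted p = 0.335, 0.207 and 0.161), and the back change without back K14 (0.16). Unlike Lrig1 and Fst, Ccn2 did not pass the test for unequal effects of the tail lines, which were -2.93, -1.99 and -3.11 in Slc1a3, Aspm and Dlx1 (adjusted p = 1).

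What the sites share was a set of transcripts depleted from labelled cells. Of 17493 genes tested, 380 were lower in tail labelled than in tail total cells (2.17% of the genes tested) and 64 were higher (0.366%). In back 74 were lower (0.423%) and 4 higher (0.0229%). A shared set of 57 genes (0.326%) passed at both sites with the same sign, 55 lower and 2 higher. They made up 73.1% of the back calls and 12.8% of the tail calls. By edgeR 0 genes passed at both sites with opposite signs, against 1 by DESeq2 and 0 by limma-voom. At an unadjusted p under 0.05 in both, 28 genes had opposite signs and 333 the same sign. Without the back Slc1a3 replicate 4 pair 94 genes were shared, the 57 among them. The average of both sites passed in 467 genes (2.67%), 391 lower and 76 higher.

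**Figure D2:**
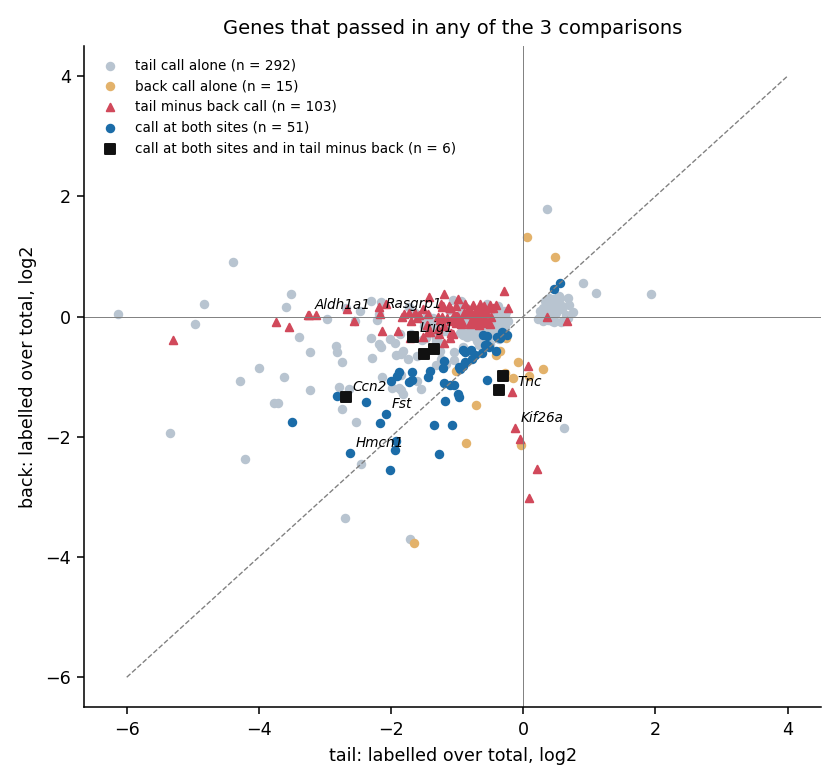
Each point is a gene that passed in tail, in back or in the difference, with its labelled-over-total change (log2) in tail on the horizontal axis and in back on the vertical axis; colours give the test passed and the dashed line marks equal changes. Genes passing at both sites (51, and 6 that also differ between the sites) lie in the lower left apart from 2, and most genes that differ between the sites lie below 0 in tail and near 0 in back.

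The shared genes described here, taken by the naming rule given with the processing, encode matrix proteins, adhesion and signalling molecules, and a transcription factor of follicle stem cells. Hmcn1 encodes hemicentin 1, a very large extracellular matrix protein. It was at 0.391, 0.854 and 2.57 CPM in tail labelled cells (lowest, median and highest of 6) against 1.58, 4.88 and 11.1 CPM in tail total cells, and at 0.490, 2.11 and 19.9 CPM in back labelled against 5.87, 16.6 and 25.5 CPM in back total cells (of 8). The tail ranges overlapped only between 1.58 and 2.57 CPM, and in back the Aspm+ cells stayed near their totals. Its change was -2.62 ± 0.25 in tail and -2.27 ± 0.19 in back (adjusted p = 5.8e-06 and 5.9e-06).

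Col8a1, a short-chain collagen, changed by -1.92 in tail and -2.07 in back. Runx1, a transcription factor with a known role in hair follicle stem cells, changed by -2.17 and -1.77. It was at 0.534, 2.35 and 6.12 CPM in tail labelled against 4.502, 9.66 and 15.9 CPM in tail total cells, and at 0.368, 3.44 and 8.71 CPM in back labelled against 2.61, 10.1 and 15.3 CPM in back total cells. Runx1 was lower in the labelled library of every one of the 14 pairs, although the group ranges overlapped. Ltbp1, which holds latent TGF-beta in the matrix, changed by -1.27 in tail and -2.28 in back. Sostdc1, a secreted antagonist of BMP and Wnt signals, changed by -0.97 and -1.33. Shroom3, an actin-binding regulator of epithelial cell shape, changed by -1.11 and -1.15, and Kif26b, a kinesin-family protein, by -1.18 and -1.41. The calls of these genes at both sites held without any one pair, apart from the tail call of Sostdc1, which was not examined that way. The calls of Cyp27a1, a sterol 27-hydroxylase (-2.38 and -1.42), and Adgrl3, an adhesion receptor (-1.35 and -1.80), were less firm. Leaving out any one of 7 back pairs ended the back call of Cyp27a1 (highest adjusted p = 0.301). The Adgrl3 call was lost at both sites, in back without any one of 3 pairs (highest adjusted p = 0.21) and in tail without any one of 4 (0.121).

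Promoter windows of RefSeq (GRCm38.p6, 250 bases before and 50 after the start of a gene) are shown for Hmcn1 and Runx1, shared genes whose windows hold the TEAD motif, and for Lrig1, the gene with the clearest site difference among the markers, whose window does not. TEAD factors bind GGAATG (searched on both strands, so CATTCC is the same motif). Matches are in capitals, at position -242 from the start in Hmcn1 and at -55 in Runx1. The windows lie on the minus strand, at chr1:150993386-150993685, chr16:92697280-92697579 and chr6:94700096-94700395.
Hmcn1: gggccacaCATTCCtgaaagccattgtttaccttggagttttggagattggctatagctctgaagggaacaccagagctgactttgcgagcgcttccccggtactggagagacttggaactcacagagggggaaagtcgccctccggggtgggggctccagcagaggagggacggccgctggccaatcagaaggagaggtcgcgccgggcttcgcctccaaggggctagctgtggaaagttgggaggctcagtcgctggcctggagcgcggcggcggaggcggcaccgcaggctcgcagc
Runx1: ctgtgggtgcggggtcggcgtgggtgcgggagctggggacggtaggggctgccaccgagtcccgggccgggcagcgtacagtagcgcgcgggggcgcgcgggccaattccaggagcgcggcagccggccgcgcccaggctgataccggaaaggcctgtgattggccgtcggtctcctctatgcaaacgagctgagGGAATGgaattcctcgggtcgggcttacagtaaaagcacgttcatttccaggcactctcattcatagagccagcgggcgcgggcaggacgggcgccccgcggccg
Lrig1: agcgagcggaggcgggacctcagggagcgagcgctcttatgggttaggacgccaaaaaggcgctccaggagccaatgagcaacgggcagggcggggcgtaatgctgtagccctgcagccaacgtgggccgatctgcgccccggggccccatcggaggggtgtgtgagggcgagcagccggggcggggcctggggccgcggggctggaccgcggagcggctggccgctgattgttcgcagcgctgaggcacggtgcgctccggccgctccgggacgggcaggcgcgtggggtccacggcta
Among genes with a promoter window the motif was present in 17.1% of the genes lower at both sites (6 of 35), 18.9% of the genes lower in tail (51 of 270), 12.2% of those lower in back (6 of 49), 12.7% of those with a negative tail minus back difference (10 of 79) and 14.9% of all genes tested (1716 of 11555). The AP-1 motif TGACTCA was present in 5.71%, 7.78%, 6.12% and 10.1% of the same sets and in 4.92% of all genes. These are counts of letters in windows of the same length. Ccn2 and Fst had no entry in the table.

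The shared genes that rose were Olig1, a basic helix-loop-helix transcription factor, and Serpinb7, an epidermal serine protease inhibitor. Serpinb7 was at 109, 163 and 218 CPM in tail labelled against 83.0, 124 and 132 CPM in tail total cells, and at 94.0, 151 and 227 CPM in back labelled against 64.5, 120 and 144 CPM in back total cells. It was higher in the labelled library of all 14 pairs, with overlapping ranges. Its change was 0.46 ± 0.09 in tail and 0.46 ± 0.08 in back (adjusted p = 0.0079 and 0.011). Olig1 changed by 0.55 ± 0.11 and 0.56 ± 0.11 (adjusted p = 0.0073 and 0.024), also upward in all 14 pairs. Both genes lost a call when some single pairs were left out, at either site, and both calls without the pair terms (adjusted p for Serpinb7 0.287 in tail and 0.559 in back).

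Rosa26, the locus that carries the reporter, gives a noncoding transcript listed as Gt(ROSA)26Sor. It was at 19.6, 27.4 and 42.4 CPM in back labelled against 4.98, 14.9 and 22.5 CPM in back total cells, where it rose by 0.99 ± 0.17 (adjusted p = 0.0096). In tail it was at 15.4, 18.8 and 19.2 CPM in labelled against 10.5, 13.4 and 15.1 CPM in total cells, a change of 0.48 ± 0.19 (adjusted p = 0.32), and the tail ranges did not overlap. The libraries do not keep the strand, so reads of this transcript and of genes that overlap it on the other strand cannot be told apart. The difference between the sites was -0.51 ± 0.25 (adjusted p = 0.78). The back call was lost without back K14 replicate 1 or 4 (adjusted p = 0.131 and 0.0513).

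Tail labelled cells lost transcripts known from the hair follicle bulge and its surroundings. Cd34, a surface glycoprotein that marks bulge cells in mouse back skin, was at 0.537, 1.76 and 3.44 CPM in tail labelled against 10.4, 17.2 and 22.3 CPM in tail total cells, with no overlap. Back libraries held 0 to 1.43 CPM labelled and 0 to 2.42 CPM total, so there was little transcript to lose there. The Cd34 change was -3.22 ± 0.45 in tail (adjusted p = 0.00038) and -0.59 ± 0.47 in back (adjusted p = 0.83), and the difference between the sites, -2.64, did not pass (adjusted p = 0.102) and did without the back Slc1a3 replicate 4 pair (-2.46, adjusted p = 0.0226). Ltbp2, a microfibril-associated relative of Ltbp1, and Col6a2, a collagen VI chain, followed the same course in tail, with changes of -3.22 and -2.82. Lgr5, a Wnt-enhancing receptor of follicle stem cells, changed by -2.74 ± 0.62 (adjusted p = 0.0227), a call lost without any one tail pair. Stra6, a membrane receptor of retinol uptake, was at 2.502, 17.1 and 43.1 CPM in tail labelled against 38.2, 67.5 and 142 CPM in tail total cells and changed by -2.53 ± 0.20 (adjusted p = 2e-06). In back Ltbp2, Col6a2, Lgr5 and Stra6 had line means of 0.0306 to 1.56 CPM. Their back changes were -1.23, -0.59, -0.76 and -1.76, and none passed. None passed the difference between the sites by edgeR either (adjusted p = 0.469, 0.0945, 0.782 and 0.986), so no site difference is shown for them.

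Grem1, a secreted BMP antagonist, had 0 counts in both tail Aspm+ libraries against 6.75 and 5.46 CPM in their totals, which is at least 46.1-fold and at least 29.3-fold lower (3 counts per library taken as the floor). Its level was 1.28 and 2.61 CPM in tail Slc1a3+ cells against 7.09 and 7.24 CPM in their totals, and 0.772 and 1.86 CPM in tail Dlx1+ cells against 14.4 and 21.8 CPM. Back libraries held 0 to 2.08 CPM labelled and 0.135 to 4.72 CPM total. All tail labelled libraries lay below all tail totals, and in back the groups overlapped. Grem1 passed in tail (adjusted p = 2.7e-05) and in tail minus back (0.0035), and leaving out back K14 replicate 1 ended the call of the difference (adjusted p = 1).

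Among the 64 genes that rose in tail was Slc1a3, the glutamate transporter whose name the line bears. It was at 20.4 and 17.6 CPM in tail Slc1a3+ cells against 8.47 and 7.55 CPM in their totals, and at 9.08 to 13.99 CPM in Aspm+ and Dlx1+ cells against 6.20 to 11.6 CPM in theirs. Its tail change was 0.70 ± 0.11 (adjusted p = 0.0011), and without the Slc1a3 line it was 0.43 (adjusted p = 0.312). Back gave 0.20 ± 0.09 (adjusted p = 0.67). Igfbp3, which binds insulin-like growth factors in serum and tissue, was at 183, 237 and 306 CPM in tail labelled against 106, 150 and 241 CPM in tail total cells, and higher in the labelled library of all 6 pairs. It changed by 0.66 ± 0.09 in tail (adjusted p = 0.00018) and by -0.07 ± 0.07 in back (adjusted p = 0.88), and the sites differed by 0.73 ± 0.11 (adjusted p = 0.0032). Without the tail Slc1a3 line the Igfbp3 tail change and the difference lost their calls, and without the back Aspm line the difference did. The back lines did not move together. Igfbp3 averaged 1630 CPM labelled against 1163 CPM total in back Slc1a3, 736 against 1113 CPM in back Aspm and 739 against 821 CPM in back K14. Ndufa4l2, a mitochondrial protein of hypoxic cells, rose by 0.55 in tail, and its call held without any one pair. H19, an imprinted noncoding RNA (1.09), Slc16a3, a lactate transporter (0.75), Endou, an endoribonuclease (0.56), and Tcp11l1 (0.68) also rose, with calls that leaving out some single tail pairs ended, as did dropping the pair terms (adjusted p = 0.455, 0.16, 0.322 and 0.124).

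The genes named for the other lines did not pass in tail: Aspm, a mitotic spindle protein, gave -0.18 ± 0.12, Dlx1, a homeobox factor, 0.09 ± 0.49, and Krt14 0.31 ± 0.11 (adjusted p = 0.67, 1 and 0.24). Without the back Slc1a3 replicate 4 pair Krt14 passed in tail (0.31, adjusted p = 0.000617), as did Gt(ROSA)26Sor (0.48, adjusted p = 0.0473). Dlx1 was at 7.15 to 12.1 CPM in tail labelled and 7.28 to 10.4 CPM in tail total libraries. In back it was at 0 to 0.685 CPM in labelled and 0 to 2.94 CPM in total libraries.

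Where the sites part, 109 genes passed the test of the difference itself. The difference was negative in 99 (0.566%), that is, labelled cells were more depleted in tail than in back, and positive in 10 (0.0572%). Of the 99, 97 were also lower in tail by their own test and 4 in back, and their median change was -1.10 in tail and 0.01 in back. Of the 10, 8 were lower in back by their own test and 4 passed in tail, and their median change was 0.01 in tail and -1.24 in back. Over the Slc1a3 and Aspm lines alone 77 genes passed (0.44%), 69 negative and 8 positive. In the Slc1a3 line 83 genes passed (77 negative) and in the Aspm line 0, where 544 genes had an unadjusted p under 0.05 and DESeq2 called 3 and limma-voom 0. Without the back Slc1a3 replicate 4 pair 197 genes passed the difference over all lines, 164 negative and 33 positive, the 109 among them, and without the back Slc1a3 replicate 1 pair 172.

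Genes with a negative difference were mostly ones at a lower level in tail IFE than in back IFE. Of the 99, 79 had a lower mean level in tail total than in back total libraries, with a median of 2.83-fold more in back, against 8919 of all 17493 genes (51.0%). Dach1, a transcriptional regulator, was at 0, 0.597 and 1.76 CPM in tail labelled against 1.17, 1.87 and 3.07 CPM in tail total cells, with labelled libraries lower in all 6 pairs. In back it was at 20.0, 28.7 and 45.4 CPM in labelled against 18.6, 24.9 and 40.5 CPM in total libraries, higher in the labelled library of 7 of 8 pairs. The Dach1 change was -2.08 ± 0.25 in tail and 0.21 ± 0.12 in back, a difference of -2.28 ± 0.28 (adjusted p = 0.00032).

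Rasgrp1, an exchange factor that activates Ras, was at 0.178, 4.80 and 9.05 CPM in tail labelled against 5.27, 10.8 and 17.1 CPM in tail total cells, and at 93.7, 105 and 147 CPM in back labelled against 77.7, 105 and 156 CPM in back total cells. The 2 tail Slc1a3+ libraries, at 0.349 and 0.178 CPM, were the lowest, and the back groups overlapped throughout. The Rasgrp1 difference was -2.22 ± 0.20 (adjusted p = 2.7e-05). Arhgap44 was at 0.653, 3.41 and 5.32 CPM in tail labelled against 7.51, 10.8 and 13.1 CPM in tail total cells, with no overlap, and at 37.5 to 52.5 CPM in back labelled against 36.2 to 54.0 CPM in back total libraries. Its difference was -1.85 ± 0.21 (adjusted p = 0.00025). The calls of Dach1, Rasgrp1 and Arhgap44 held without any one pair and without the pair terms. Of the 20 named genes that passed the difference, Aqp3, Grem1 and Sh3tc2 also held without the pair terms, and the other 14 did not, among them Kif26a, Tnc, Igfbp3 and Aldh1a1 (adjusted p = 0.196, 0.154, 0.151 and 0.146).

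Aldh1a1, which makes retinoic acid from retinaldehyde, had 0 counts in both tail Slc1a3+ libraries against 1.10 and 0.472 CPM in their totals, at least 6.31-fold and at least 2.65-fold lower. In back it was at 7.78, 13.6 and 23.1 CPM in labelled against 4.72, 14.9 and 24.1 CPM in total libraries. Lpar1, a receptor for lysophosphatidic acid, also had 0 counts in both tail Slc1a3+ libraries, against 3.17 and 0.747 CPM in their totals, and was at 3.16 to 4.80 CPM in back labelled against 2.16 to 10.7 CPM in back total libraries. Aldh1a1 passed the difference with an adjusted p of 0.0032 and lost it without the tail Slc1a3 line (0.383), and Lpar1 passed with 0.044 and lost it when 11 of the 14 pairs were left out singly. Dnajc6, an auxilin of clathrin uncoating (-2.34), Serpina3g, a serine protease inhibitor (-1.89), Igtp, an interferon-induced GTPase (-1.83), and Sh3tc2 (-1.78) passed as well, with calls lost when between 2 and 10 single pairs were left out.

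Genes with a positive difference were mostly ones at a higher level in tail IFE. Of the 10, 8 had a higher mean level in tail total than in back total libraries, with a median of 7.71-fold. Over all genes tested, 8919 of 17493 (51.0%) had a lower mean level in tail total. Tnc, which encodes the matrix protein tenascin C, was at 65.9, 83.2 and 100 CPM in tail labelled against 78.3, 87.4 and 121 CPM in tail total cells, and at 2.74, 5.64 and 8.61 CPM in back labelled against 9.67, 11.9 and 28.5 CPM in back total cells. In back the labelled libraries all lay below the totals, whereas the tail groups covered much the same range. The Tnc change was -0.17 ± 0.09 in tail and -1.25 ± 0.09 in back (adjusted p = 0.56 and 2.2e-06), a difference of 1.08 ± 0.13 (adjusted p = 0.00032). Kif26a, a relative of Kif26b, was at 51.0, 76.3 and 122 CPM in tail labelled against 61.8, 90.4 and 94.3 CPM in tail total cells, and at 0.799, 4.23 and 12.02 CPM in back labelled against 7.07, 14.3 and 59.9 CPM in back total cells. Its difference was 1.73 ± 0.20 (adjusted p = 0.00028), and 1.54 without the back Slc1a3 replicate 4 pair, whose total library holds the 59.9 CPM.

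Aqp3, the water and glycerol channel of basal keratinocytes, was at 1360, 1525 and 1870 CPM in tail labelled against 1314, 1468 and 1760 CPM in tail total cells, and at 29.6, 46.3 and 94.4 CPM in back labelled against 52.7, 96.3 and 124 CPM in back total cells. Labelled back cells were lower in 7 of 8 pairs and tail pairs were near equal. The difference was 0.89 ± 0.11 (adjusted p = 0.00032). Irx4, a homeobox factor (0.86), and Pdlim4, an actin-associated protein (0.68), fell at both sites and more in back. Slc38a4, an amino acid transporter (1.99), fell in back alone by its tests. Leaving out any one of 8 pairs ended the call of the Slc38a4 difference (highest edgeR adjusted p = 0.146), as did dropping the pair terms (0.816). The Irx4 difference lost its call without the line back K14 or tail Slc1a3, and the Pdlim4 difference without tail Aspm. Wnt3, a ligand of epidermal basal cells, had the smallest difference of those named: it rose in tail by 0.36 ± 0.06 and gave -0.01 ± 0.05 in back, a difference of 0.36 ± 0.08 (adjusted p = 0.047) that leaving out any one of 11 pairs ended. Rasa4 and Sulf1 complete the 10, and are named because the count is small.

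**Figure D3:**
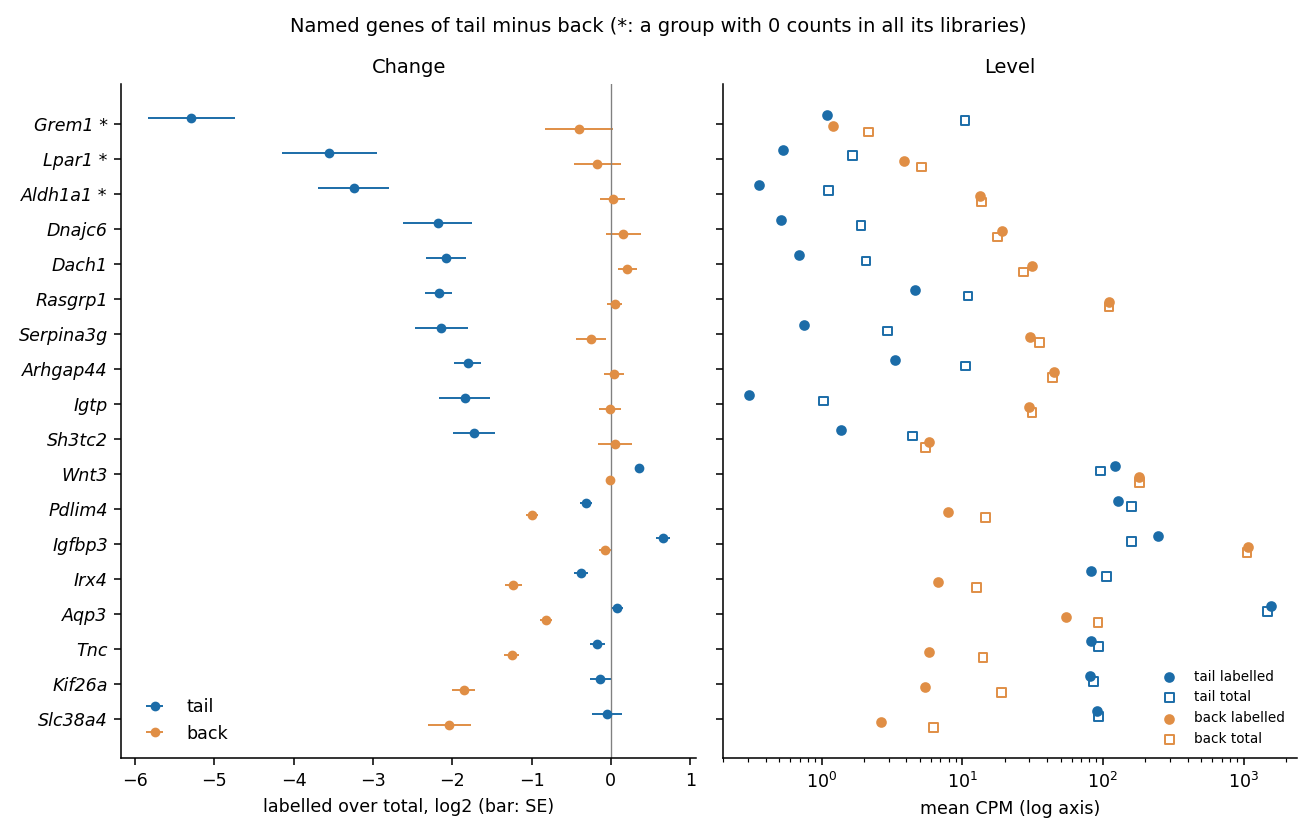
Left, the labelled-over-total change (log2, bar SE) in tail and in back of the genes named for the difference between the sites; right, their mean CPM (log axis) in tail labelled, tail total, back labelled and back total libraries. Genes with a negative difference sit left of 0 in tail and near 0 in back and are mostly low in tail, most with a positive difference sit near 0 in tail and left of 0 in back, and no fold is read for genes with an asterisk, which have a group at 0 counts.

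In the gene sets above the level and the change share the total libraries. As a description free of that, and chosen after the values were seen, genes were divided by their level in the Aspm totals and the changes were read in the other lines. For 316 genes at least 4-fold lower in tail Aspm total than in back Aspm total, the median change was -0.27 in tail Slc1a3+ and -0.22 in tail Dlx1+ cells, with 66.8% and 65.8% of genes negative, against 0.09 in back Slc1a3+ and 0.03 in back K14+ cells, with 34.8% and 44.3% negative. For 277 genes at least 4-fold higher in tail, the medians were 0.01 and 0.04 in tail (49.1% and 48.4% negative) against 0.03 in back Slc1a3+ cells (46.9%) and -0.12 in back K14+ cells (61.0%). For the 10067 genes between, 45.0% to 48.4% were negative in the 4 groups. Genes low in tail leaned down in labelled tail cells of both lines, and genes low in back leaned down in labelled back cells of the K14 line and not of the Slc1a3 line.

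The lines of a site did not contribute alike. Among the 380 genes lower in tail the median change was -1.26 in Slc1a3+, -0.52 in Aspm+ and -0.77 in Dlx1+ cells, and the Slc1a3 line had the lowest value in 285 of them. Among the 74 genes lower in back the medians were -1.10 in Slc1a3+, -0.48 in Aspm+ and -1.06 in K14+ cells. The test for unequal effects of the 3 tail lines passed in 22 genes (0.126%), and the Slc1a3 effect was the lowest in all of them. Susd2, a membrane protein with a sushi domain, had 3.84 and 3.03 CPM in tail Slc1a3+ cells against 43.0 and 39.9 CPM in their totals. In the Aspm and Dlx1 lines it had 31.8 to 41.8 CPM labelled against 38.9 to 61.4 CPM total. Il20ra, a receptor chain for interleukins of the IL-20 group, had 0.873 and 1.009 CPM in tail Slc1a3+ cells against 8.95 and 10.5 CPM in their totals, while the other lines had 7.30 to 13.5 CPM labelled against 9.18 to 14.7 CPM total. Both genes changed little outside the tail Slc1a3 pairs (adjusted p between tail lines 1.1e-06 and 0.00012). Krt80, a keratin of differentiating epithelia, changed by -2.12 in tail Slc1a3+ cells, -0.33 in Aspm+ and -0.35 in Dlx1+ cells (adjusted p = 2e-05).

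The back lines differed in 2 genes (0.0114%), Hmcn1 and Kif26a, both with the Aspm line nearest to 0. Hmcn1 changed by -3.50 in back Slc1a3+, -0.33 in Aspm+ and -2.97 in K14+ cells, and Kif26a by -3.33, -0.63 and -1.61 (adjusted p = 0.026 each). Both calls rest on few libraries: leaving out any one back Aspm pair left 0 genes, and leaving out back Slc1a3 replicate 4 left 20. When the tail Slc1a3 line was left out, 133 genes passed in tail, 129 of them among the 444, and 28 passed the difference between the sites, all 28 among the 109. Lrig1 was one of these, with a difference of -0.65.

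**Figure D4:**
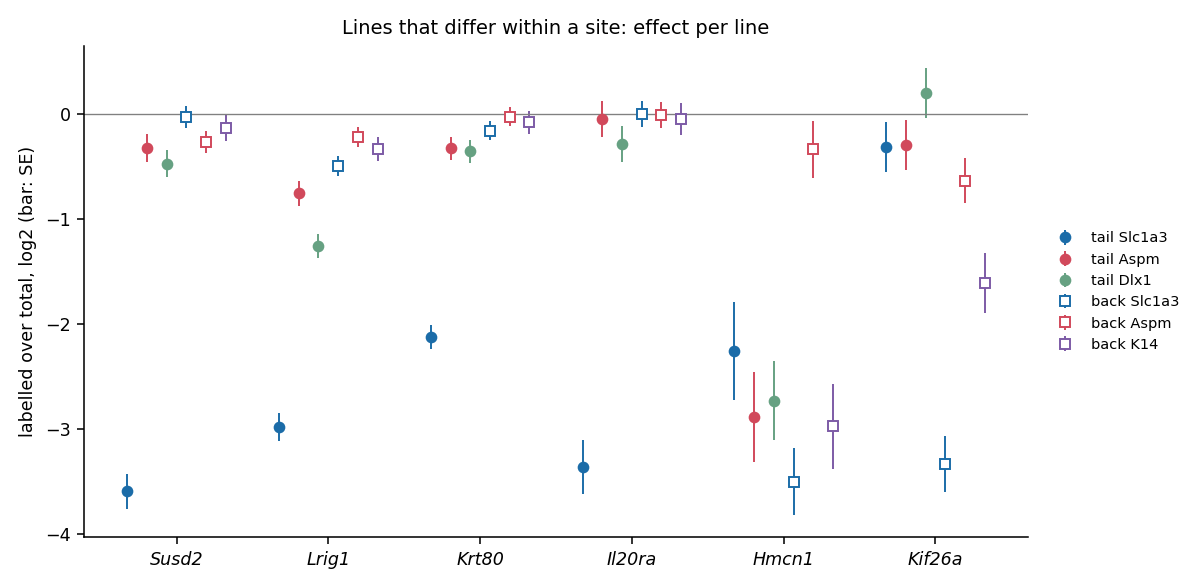
Labelled-over-total change (log2, bar SE) in each line, tail lines (filled) left of back lines (open), for the genes with the lowest p for unequal lines within a site. The tail Slc1a3 point is far below the other tail points for Susd2, Lrig1, Krt80 and Il20ra, and the back Aspm point is the back point nearest 0 for Hmcn1 and Kif26a.

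Gene lists fixed from general knowledge of skin, with earlier results of these data known, place these genes beside others of their pathway or compartment. Over all genes tested the median change was -0.01 in tail and 0.02 in back, 2.17% fell and 0.366% rose in tail, 0.423% fell and 0.0229% rose in back, and the difference was negative in 0.566% and positive in 0.0572%, the shares against which each list's counts are to be read. Of 22 genes of the bulge and hair germ, 14 fell in tail and 3 in back, and 3 passed the difference with a negative sign, with medians of -1.29 in tail and -0.35 in back (-0.27 in back with genes that have a group at 0 counts taken at their bound). In the fit without the back Slc1a3 replicate 4 pair, 15 fell in tail and 4 in back, and 6 passed the difference. Sox9, a transcription factor of follicle stem cells, changed by -1.68 in tail and -1.06 in back. Foxc1, a factor of bulge quiescence, changed by -1.88 and -0.92, and Sostdc1 fell at both sites as given above. Col6a1, a collagen VI chain, and Dkk3, a secreted Dickkopf-family protein, fell in tail (-1.11 and -0.71) and differed between the sites by -1.25 and -0.83. The summed level of the list was 3424 to 5184 CPM in tail labelled against 5703 to 7865 CPM in tail total libraries, and 13470 to 19700 CPM in back labelled against 15620 to 20060 CPM in back total libraries.

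Of 13 genes of the upper follicle and isthmus, 9 fell in tail and 6 in back, with medians of -1.46 and -0.35. Fst, Susd2, Dpysl3 and Col8a1 were placed on this list with their behaviour in these samples known, and without them 5 of 9 fell in tail and 3 in back, with medians of -0.73 and -0.29. With the back Slc1a3 replicate 4 pair left out, 11 of the 13 fell and 1 rose in tail and 7 fell in back. Gata6, a factor of the sebaceous duct and upper follicle, changed by -1.73 in tail and -1.09 in back. Krt17, a follicle keratin, changed by -0.88 and -0.75. Krt79, a keratin of the infundibulum, passed in tail (-0.73) and not in back (-0.29), and its difference between the sites did not pass (edgeR adjusted p = 0.532). Its tail means were 193 CPM labelled against 299 CPM total in the Slc1a3 line and 92.1 against 290 CPM in the Dlx1 line. The tail Aspm line had 307 against 306 CPM. The summed level was 462 to 1056 CPM in tail labelled against 917 to 1491 CPM in tail total, and 641 to 1005 CPM in back labelled against 884 to 1185 CPM in back total libraries. Of 15 sebaceous gland genes tested, 0 passed at either site by edgeR and limma-voom, with medians of 0.12 in tail and 0.30 in back. Of these, 7 were negative in tail and 3 in back, and 3 at each site had an unadjusted p under 0.05. DESeq2 called 0 in tail and 1 in back. Without the back Slc1a3 replicate 4 pair Scd1 rose in tail (0.18). The part that follicle cells in the totals play in the results was not tested.

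**Figure D5:**
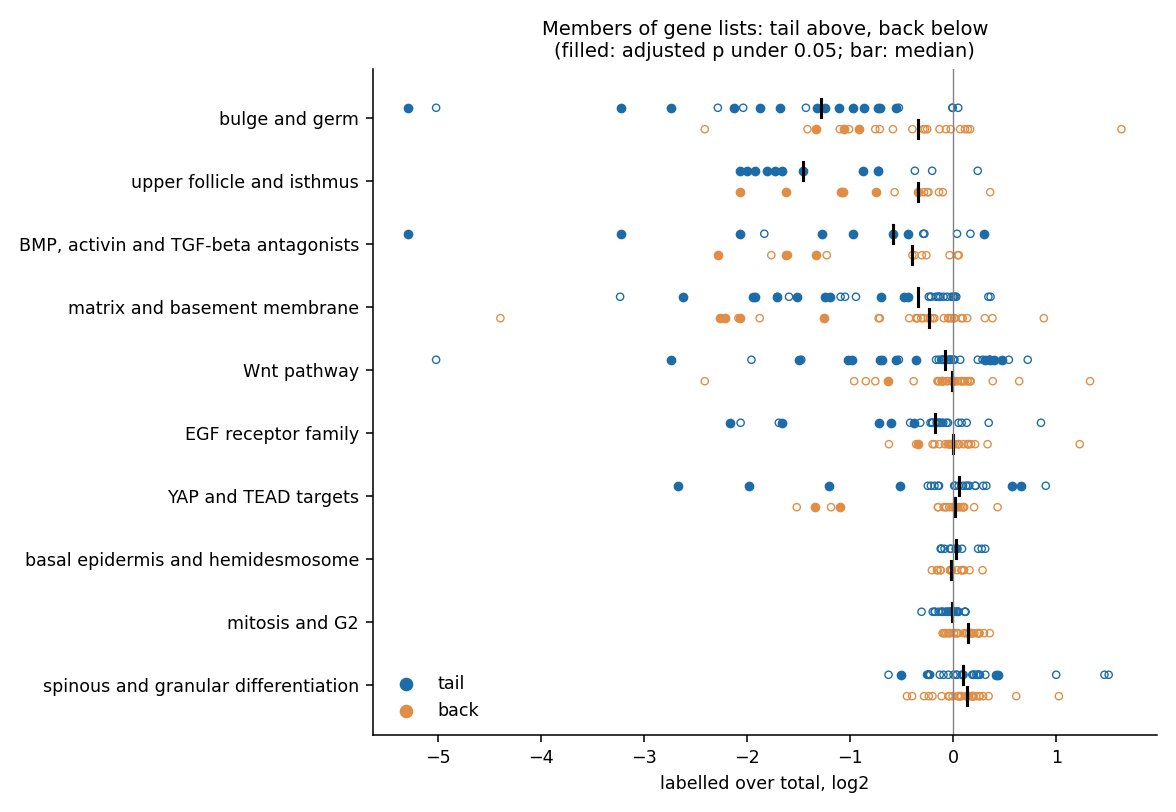
Labelled-over-total change (log2) of each tested member of 10 gene lists, tail above back; filled points passed and bars are medians. The bulge and upper follicle lists have the lowest medians in tail, -1.29 and -1.46, and medians of -0.35 in back, while the mitosis list lies near 0 in tail and at 0.14 in back.

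Of 13 antagonists and binding proteins of BMP, activin and TGF-beta, 7 fell and 1 rose in tail and 3 fell in back (Fst, Sostdc1 and Ltbp1), with medians of -0.58 and -0.40. Leaving out the back Slc1a3 replicate 4 pair gave 9 that fell and 1 that rose in tail and 4 that fell in back. Of 9 ligands, Inhbb, an activin subunit (-1.04 in tail and -1.13 in back), and Bmp7 (-0.25 and -0.32) fell at both sites, and Bmp4 rose in tail (0.58). Of 23 receptors and effectors, Bmpr1b, a BMP receptor, fell in tail (-1.12), and 0 passed in back by edgeR, where 4 had an unadjusted p under 0.05 and DESeq2 and limma-voom called 0. The Bmpr1b fall lay in the tail Slc1a3 line, at a mean of 0.119 CPM labelled against 1.41 CPM total. In tail the Aspm line had 2.43 against 2.01 CPM and the Dlx1 line 1.89 against 2.01 CPM.

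Of 39 Wnt pathway genes, 8 fell and 4 rose in tail (7 rose without the back Slc1a3 replicate 4 pair), and 1 fell in back. Fzd7, a Wnt receptor, fell at both sites (-1.50 in tail and -0.63 in back) and more in tail, by -0.87. The Wnt antagonists Apcdd1 and Sfrp1 fell in tail (-0.98 and -0.56) and differed between the sites by -0.97 and -0.64, and the ligands Wnt7b, Wnt3 and Wnt10b rose in tail (0.39, 0.36 and 0.48). Of 26 genes of the EGF receptor family and its restraints, 5 fell in tail (7 without the back Slc1a3 replicate 4 pair) and Lrig1 alone fell in back. Dusp6, a phosphatase that restrains ERK, fell in tail (-0.60) and differed between the sites by -0.77. Of 16 retinoid genes, 5 fell in tail, among them Adh7 and Lrat, which oxidize and esterify retinol (-1.45 and -2.69). In back 0 passed by edgeR, DESeq2 and limma-voom, and 4 had an unadjusted p under 0.05. The fitted Lrat change in back was -3.35 (edgeR adjusted p = 0.319), and its difference between the sites, 0.66, did not pass (0.951). The Adh7 difference, -1.19, passed (0.00018).

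Of 32 matrix and basement membrane genes, 10 fell in tail and 4 in back. The collagen IV chains Col4a1 and Col4a2, parts of basement membranes, fell in tail (-1.72 and -1.51) and differed between the sites by -1.35 and -1.17. Pappa, a protease of IGF-binding proteins, fell at both sites (-1.94 and -2.22). Of 23 targets of YAP and TEAD, 4 fell in tail (Ccn2, Arhgef17, Nt5e and Crim1) and Igfbp3 and Ccdc80 rose, and in back Ccn2 and Arhgef17 fell. The list's median was 0.05 in tail and 0.01 in back, and without the back Slc1a3 replicate 4 pair 5 fell and 4 rose in tail and 3 fell in back. Of 24 interferon response genes, Usp18 and Psmb8 fell in tail (-3.14 and -1.10) and differed between the sites by -3.17 and -1.03. Both were low in tail. Usp18 had line means of 0.0244 to 0.204 CPM in tail labelled against 0.713 to 0.799 CPM in tail total, and 26.9 to 44.3 CPM in back groups. Psmb8 had 1.35 to 2.14 against 3.21 to 4.96 CPM in tail, and 156 to 181 CPM in back groups. The summed level of the list was 115 to 135 CPM in tail labelled and 110 to 150 CPM in tail total, against 503 to 1043 CPM in back labelled and 512 to 1199 CPM in back total libraries.

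Of 31 genes of spinous and granular differentiation, Krt10 and Tgm3 rose in tail (0.44 and 0.41) and Spink5 fell (-0.51), with medians of 0.09 in tail and 0.13 in back, and 0 passed in back by edgeR and limma-voom, against 1 by DESeq2 and 7 at an unadjusted p under 0.05. Without the back Slc1a3 replicate 4 pair 4 rose and 1 fell in tail, and Krt1, Krt10 and Sbsn rose in back. The Spink5 fall lay mostly in the Dlx1 line, with means of 11.1 CPM labelled against 27.2 CPM total. In tail the Slc1a3 line had 21.9 against 24.7 CPM and the Aspm line 22.8 against 23.7 CPM. Of 16 basal and hemidesmosome genes, 30 mitosis genes and 20 DNA replication genes, 0 passed at either site by edgeR. The counts at an unadjusted p under 0.05 were 3, 0 and 0 in tail and 4, 5 and 2 in back, and DESeq2 called 1, 0 and 0 in tail and 1, 1 and 1 in back, limma-voom 1, 0 and 0 in tail and 0 in back. In the fit without the back Slc1a3 replicate 4 pair, Krt5, Krt14 and Sparc of the basal list rose in tail (0.24, 0.31 and 0.27), Sparc rose in back (0.34) and Anln of the mitosis list rose in back (0.25). The mitosis list had a median of -0.02 in tail and 0.14 in back and a summed level of 1040 to 1623 CPM in tail labelled against 1138 to 1526 CPM in tail total, and 543 to 1208 CPM in back labelled against 443 to 1398 CPM in back total libraries.

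Lists of other cells that a sort could carry are given by site. Of 9 fibroblast genes tested of 13, Col6a1 fell in tail, which is also on the bulge list, and 0 passed in back by edgeR, DESeq2 and limma-voom, with 0 at an unadjusted p under 0.05. The summed level of the list was 74.5 to 112 CPM in tail labelled against 117 to 181.8 CPM in tail total, and 33.3 to 51.0 CPM in back labelled against 23.8 to 57.5 CPM in back total libraries. Col6a1 itself averaged 56.4 CPM in tail labelled and 118 CPM in tail total cells. Dcn, a proteoglycan of fibroblasts, averaged 20.6 CPM in tail labelled and 19.1 CPM in tail total cells. Endothelial and mural genes summed to 3.26 to 4.89 CPM in tail labelled and 4.61 to 22.5 CPM in tail total, and to 3.82 to 11.7 CPM in back labelled and 4.70 to 40.7 CPM in back total libraries. Their median change was -0.75 in tail and -1.84 in back (-1.38 in back with genes that have a group at 0 counts taken at their bound). In back 10 of 11 were negative and 7 had an unadjusted p under 0.05, with 0 passing by edgeR, DESeq2 and limma-voom. Langerhans and T cell genes summed to 8.55 to 39.8 CPM in tail labelled and 6.37 to 44.8 CPM in tail total, and to 58.1 to 267 CPM in back labelled and 26.2 to 149 CPM in back total libraries. Merkel cell genes summed to 0.119 to 1.13 CPM in tail labelled against 1.25 to 5.65 CPM in tail total, with no overlap, and to 0.0857 to 1.62 CPM in back labelled against 0.14 to 3.58 CPM in back total libraries. No member of these lists was at 0 in all libraries, and their part in the results was not tested.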

How the data were processed

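Labelled and total sorted epidermal cells were sequenced from tail and back skin in 28 libraries. The authors deposited raw read counts per gene (Ensembl identifiers, no header), which were used as deposited. Per the submitters' processing notes, Trim Galore 0.6.0, cutadapt, FastQC, STAR 2.7.0e, DESeq2 1.26.0 and GRCm38 (mm10) were used; the counting program, annotation and strand setting are not given in the sources used here. Per the labels' protocols, poly(A) libraries were made with a non-directional kit.

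Genes were kept by edgeR's filter (minimum count 10, 17493 genes), scaled by TMM and fitted across all 28 libraries with a term for each of 14 pairs and 6 labelled effects, 1 for each line at each site. The quasi-likelihood test of edgeR 4.0.16 (limma 3.58.1, R 4.3.3) was used with Benjamini-Hochberg adjusted p below 0.05 over all genes tested. Log2 CPM of single pairs used a prior count of 2. A pair is a labelled and a total library with the same line, site and replicate number. The deviations of the libraries of a pair from their group means correlated at 0.180 to 0.689 in all 14 pairs. For the same number in another line or site the correlation was -0.331 to 0.379, which overlaps the range of the pairs. In lines with 2 replicates the deviations mirror each other, so both pairs give the same value. The numbers were taken as pairs, and without this replicate block 218 genes passed in tail. Whether libraries came from separate animals is not given in the sources used here, and p-values cover only the variation from library to library. Marker genes were also tested with exact two-sided permutation tests over pairs (9 tests), which take no account of lines. With 6 tail pairs no p below 0.03125 is possible.

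Genes were named when they passed with the same sign in every pair of a site, at 5 CPM or more in the higher population, up to 10 each way; for the difference 1 CPM at the other site was also required. Genes passing at both sites with 5 CPM at each were ordered by their smaller change, and for each gene list the 4 lowest p-values of a comparison decided which members were named; further list members were named after their values were seen. Lrig1, Fst, Ccn2, the genes of the lines and the Rosa26 transcript were always included. The members and gene lists were chosen with earlier results of these data known. Alternatives were DESeq2 1.42.0, limma-voom, other filters, scalings and designs, and leaving out pairs or lines. On data simulated with 50 genes changed at each of 1.5-, 2-, 4- and 8-fold in tail (17493 genes), the tail test recovered 31, 44, 49 and 49 of them with 12 false calls, and the difference 20, 38, 49 and 49 with 3 false calls. The changed genes held a mean of at least 2 CPM and had the same fold in all tail lines. The simulated spread was that of the fitted model. These counts do not carry over to genes near the floor or to effects that differ between lines. Python 3.11.15 with numpy 2.4.6, pandas 2.3.3, scipy 1.17.1 and matplotlib 3.10.9 was used for tables, exact tests and figures. Read counts ranged from 7738262 to 37670589 per library, which sets how precisely low genes are measured.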

Additional observations from a re-analysis of the deposited data

Results flagged for a closer look

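Of 27 groups of 4 to 8 values examined for a value far from the others, 5 held one, where chance gives about 1 in 20 groups. In back total Slc1a3 replicate 4, 14436 genes had a count and 0.208% of counts were mitochondrial, both the lowest of their group. Its pair gave a Krt14 change of -1.02, the lowest in back. The tail labelled Dlx1 replicate 2 library had 30939847 counts, and its pair gave an Aspm change of 0.24, the highest in tail.

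The tests of a difference between sites or lines passed in 109 genes for tail minus back, in 22 genes for the tail lines and in 2 genes for the back lines. Of the markers, Lrig1 differed between the sites by -1.31 and Ccn2 by -1.33. The named genes with a positive tail minus back difference (log2) were Slc38a4 (1.99), Kif26a (1.73), Tnc (1.08), Aqp3 (0.89), Irx4 (0.86), Igfbp3 (0.73), Pdlim4 (0.68) and Wnt3 (0.36). Those with a negative difference were Dnajc6 (-2.34), Dach1 (-2.28), Rasgrp1 (-2.22), Serpina3g (-1.89), Arhgap44 (-1.85), Igtp (-1.83) and Sh3tc2 (-1.78). The fitted values of Grem1 (-4.90), Lpar1 (-3.38) and Aldh1a1 (-3.26) involve a group at 0 counts, depend on the prior count and are no measured folds.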

How the results depend on the processing

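The count in tail (444 genes) was 218 without the replicate block, 1726 with tail libraries alone (819 higher, 907 lower), 1121 without the line back Slc1a3, 133 without tail Slc1a3, 224 without tail Dlx1, and 257 to 849 without single pairs. The count in back (78) was 25 without the block, 37 with 1 effect per site, 155 by DESeq2, 227 with no filter (87 higher, 140 lower), 42 with back libraries alone and 38 to 140 without single pairs. The count of tail minus back (109) was 27 without the block, 65 with 1 effect per site, 208 by DESeq2, 292 with no filter, 325 without back Slc1a3, 57 without back Aspm, 28 without tail Slc1a3 and 74 to 197 without single pairs. In the Slc1a3 and Aspm lines it (77) was 19 without the block, 145 by DESeq2, 35 by limma-voom, 220 with no filter, 10 without back Slc1a3, 0 without tail Slc1a3 and 49 to 135 without single pairs. The count over both sites averaged (467) was 230 without the block, 731 by DESeq2, 763 with no filter, 834 without back Slc1a3, 205 without tail Slc1a3, 287 without tail Dlx1 and 309 to 887 without single pairs. The count of unequal tail lines (22) was 5 without the block, 90 by DESeq2, 113 with no filter, 165 with tail libraries alone, 98 without back Slc1a3, 0 without tail Slc1a3 and 7 to 70 without single pairs. That of back lines (2) was 0 without the block, 39 by DESeq2, 4 by limma-voom, 130 with no filter, 0 with back libraries alone, 10 without back Slc1a3, 0 without back Aspm, tail Slc1a3 or tail Aspm, 1 without tail Dlx1 and 0 to 20 without single pairs. The shared count (57) was 17 without the block, 22 with 1 effect per site, 91 by DESeq2, 110 with no filter, 36 with libraries of a site alone, 34 without back Aspm, 37 without back K14, 25 without tail Slc1a3, 37 without tail Dlx1 and 32 to 94 without single pairs. Without the back Slc1a3 replicate 4 pair the tail calls were 219 higher and 630 lower and the back calls 25 higher and 115 lower. The Fst difference turned to 0.60 without tail Slc1a3, and in the Slc1a3 and Aspm lines to 0.071 without back Slc1a3 and 0.096 without tail Slc1a3. The causes were not tested. Of 2090 alternatives for 73 single-gene results, 1738 kept direction and side of the threshold, 348 lost the call, 1 gained it and 3 turned the direction.

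Of 20 named calls of tail minus back, 11 held without any one pair and 6 without the block; of 31 in tail 18 and 21 held, and of 18 in back 12 and 12. Lines and sites are not crossed: Dlx1 was sorted from tail alone and K14 from back alone, so these lines and their site cannot be told apart. Depth limits genes near 1 CPM, whose tail or back level is read from few counts.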
